A study of Ovis aries with 32 samples.

Results

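TNF, IL1B, IL1RN and IL10 encode tumour necrosis factor, interleukin-1β, the interleukin-1 receptor antagonist and interleukin-10. Their probes on a sheep gene expression array were found by the sequence accession the files give for a probe, by a match of group means between the study's gene table and the arrays, or by a gene name in the files. The accession named TNF, IL1B and IL10, and the gene table named IL1RN. These 4 genes stand among 2271 genes with a symbol, and 14425 genes and unnamed features in all. They are read by 5 probes: 1 for TNF on 1 spot, 1 for IL1B on 5 spots, 1 for IL1RN on 1 spot, and 2 for IL10, the first on 5 spots and the second on 1 spot. A further probe, described in the files as a partial TNF coding sequence, was well above background on 3 of 32 arrays and was not used. The gene table lists genes that the study had called altered on these same samples, so the direction of IL1RN is not independent of that choice.

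The study asked how the response of the middle cerebral artery to stimulation of alpha-1 adrenergic receptors matures. Arteries from 4 animals per experiment were freed of fat and connective tissue, cut into segments and kept in oxygenated Krebs buffer. The treated segments received 10 µM phenylephrine (PHE), an agonist of these receptors, for 30 min before freezing. How long the untreated segments stayed in the bath is not given in the sources used here. There were 32 arrays in 8 groups of 4, untreated and PHE at each of 4 ages. The ages are premature fetus (96 days of gestation), near-term fetus (146 days of gestation in the labels, 140 in the methods), newborn lamb (12 h old in the labels, 5 days in the methods) and adult sheep (2 years old in the labels, non-pregnant and 18 to 24 months old in the methods). Whether arrays that share a replicate number share an animal is not stated.

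Tumour necrosis factor and interleukin-1β are released by macrophages, endothelium and smooth muscle, and act through receptors that switch on NF-κB and the stress kinases. The interleukin-1 receptor antagonist occupies the interleukin-1 receptor without signalling, and interleukin-10 signals through JAK1 and STAT3 to lower cytokine production in leukocytes. In cerebral arteries both cytokines are known for inducing adhesion molecules and chemokines that recruit leukocytes to the vessel wall.

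A value is the log2 of a probe's signal over the 75th percentile of its array, so that 0 is the signal of the 75th percentile. That percentile lay between 124 (near-term untreated replicate 4) and 1709 (adult untreated replicate 3) intensity units. The scanner software flagged between 59.3% (near-term untreated replicate 3) and 95.7% (near-term PHE replicate 4) of probes as well above background. Replicates were far less alike at the near-term age. The median SD over 15008 probes was 0.8 untreated and 0.76 under PHE there, against 0.27 and 0.2 at the premature age, 0.29 and 0.23 in newborn lambs and 0.43 and 0.34 in adult sheep. Each test pools the spread over all 8 groups, so for the median probe its errors are too small at the near-term age and too large at the premature age and in newborn lambs. This does not hold for each gene: near-term SDs of TNF (1.04 and 0.83) and IL1B (0.99 and 1) were lower than those of adult PHE arrays (2.41 and 2.33). With only the arrays of the age compared, 87 features passed at the near-term age against 3403 with the pooled spread, 124 against 322 in adult sheep, 2828 against 1661 at the premature age and 1740 against 991 in newborn lambs. The premature arrays shared slide 5 and the newborn arrays slide 4. All near-term PHE arrays were on slide 1 with 1 untreated array of that age, and all adult PHE arrays were on slide 3 with 2 untreated adult arrays.

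PHE raised all 4 genes at the premature age and in newborn lambs. A feature was tested where every array of at least 1 of the groups compared was well above background, and called at a limma adjusted p under 0.05 with at least a 1.5-fold change. At the premature age 4 of the 4 genes were called higher, beside 8.42% of all features tested, 27.4% of tested genes with a symbol and 15.5% of tested genes named by accession. In newborn lambs 4 of 4 were called higher, beside 5.3%, 19.5% and 15.5%. At the near-term age TNF and IL1B were called, IL10 was tested and not called, and IL1RN was not tested; the backgrounds were 17.1%, 34.9% and 11.7%. In adult sheep IL1B was the 1 gene tested and was called, beside 2.67%, 11.1% and 8.84%. Of these calls only IL10 at the premature age and IL1B at the near-term age and in adult sheep had every array of both groups well above background; the others entered the test through their PHE arrays, so the counts are a description. The median log2 difference of all features tested was -0.09 at the premature age, -0.09 at the near-term age, -0.08 in newborn lambs and -0.05 in adult sheep. In whole segments, more RNA per cell and more cells that carry the RNA cannot be told apart.

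**Figure D1:**
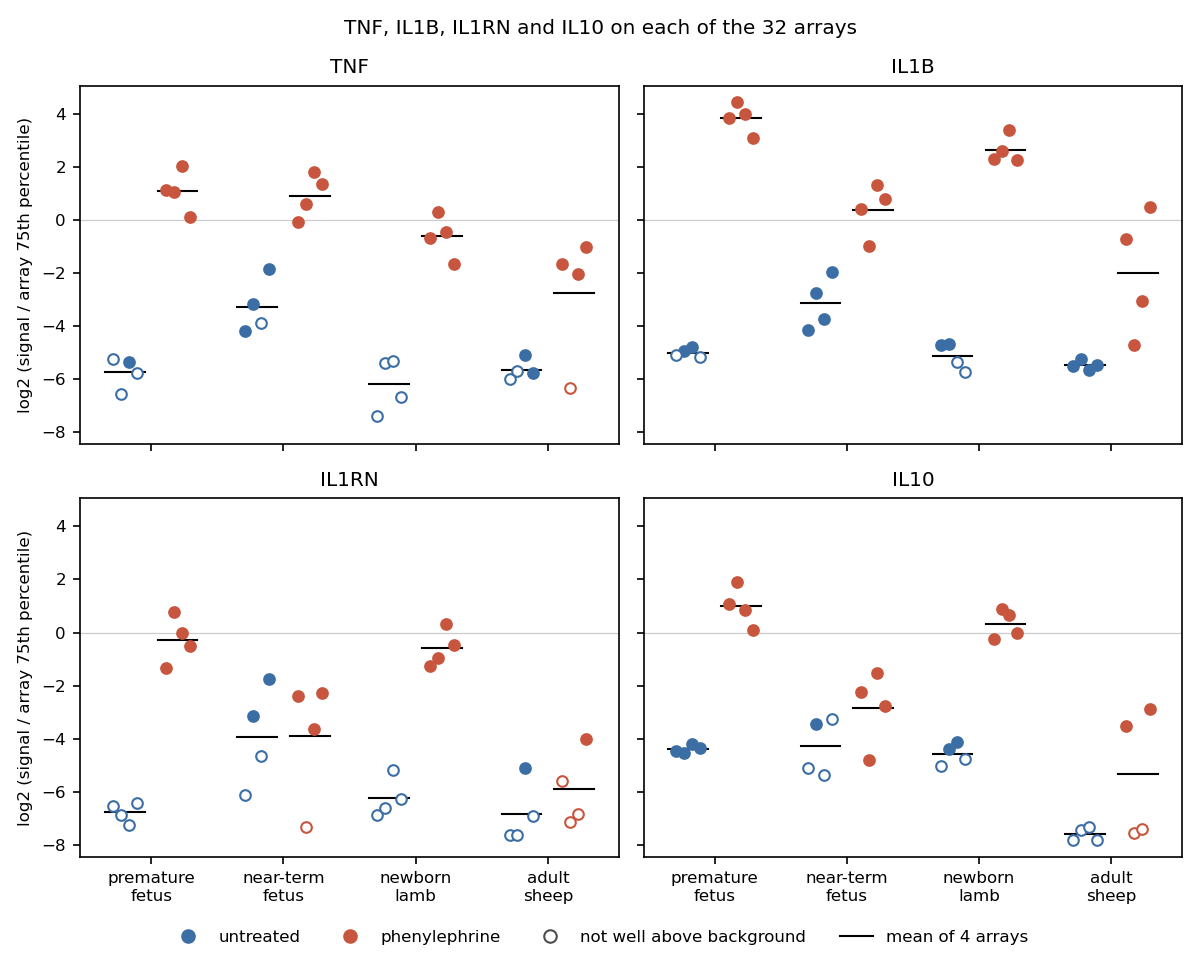
Each point is 1 array, with log2 of signal over the array's 75th percentile on the y axis, the 4 ages on the x axis, untreated arrays in one colour and PHE arrays in the other; bars are means of 4 arrays and open points are not well above background. IL1B values of PHE and untreated arrays do not overlap at any age, while IL1RN values overlap at the near-term age and in adult sheep.

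TNF is the founding ligand of the TNF superfamily. At the premature age the untreated log2 values were -5.25, -6.54, -5.35 and -5.75, with 1 of 4 arrays well above background, and the PHE values were 1.12, 1.07, 2.04 and 0.13. The PHE arrays all lay far above the untreated ones, and the log2 difference was 6.81 ± 0.77 (SE, n = 4 and 4; adjusted p = 3.89e-07). Dim values enter such a difference as measured, and no fold is given where only some untreated arrays were well above background. In newborn lambs the untreated values were -7.37, -5.39, -5.32 and -6.65, none of them well above background, and the PHE values were -0.66, 0.29, -0.43 and -1.66. These groups were also apart, with a log2 difference of 5.57 ± 0.77 that amounts to at least 17.91-fold (adjusted p = 1.65e-05). With normexp background correction these differences were 3.75 and 2.99. A bound of this kind, here and below, replaces each dim value of the lower group with the faintest reliable signal of its array where that is higher, and the higher group was well above background on all 4 arrays.

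Near-term untreated values were -4.18, -3.18, -3.87 and -1.83, with 3 of 4 arrays well above background, and PHE values were -0.07, 0.59, 1.82 and 1.35. All 4 PHE arrays exceeded all 4 untreated arrays, and TNF rose by 4.19 ± 0.77 on the log2 scale (adjusted p = 0.00019, or 0.0249 with only near-term arrays). With normexp it rose by 2.14 (adjusted p = 0.00486). With slide as a block the near-term difference was 2.76 (adjusted p = 0.0877), and within slide 1, which holds 1 untreated array of that age, it was also 2.76 (adjusted p = 0.0707). Adult untreated values were -6, -5.67, -5.09 and -5.76, and PHE values were -1.65, -6.31, -2.04 and -1.01. PHE replicate 2 fell below every untreated adult array, and the other 3 PHE arrays lay above them all. That array was also lowest over the 827 genes called higher at the premature age. Its median log2 value above the untreated adult mean was 0.16, against 0.86, 0.53 and 0.69 on PHE replicates 1, 3 and 4. The adult log2 difference of 2.88 ± 0.77 was not tested, since 2 of 4 untreated and 3 of 4 PHE arrays were well above background; without PHE replicate 2 it was 4.06 (adjusted p = 1.98e-05).

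IL1B encodes a cytokine made as an inactive precursor and released after cleavage. At the premature age the untreated log2 values were -5.08, -4.95, -4.78 and -5.15 and the PHE values were 3.85, 4.44, 3.99 and 3.11. No untreated array came near a PHE array. The log2 difference was 8.84 ± 0.69 (adjusted p = 7.93e-10), and 2 of the 4 untreated values were above background by the scanner's flag. In newborn lambs the untreated values were -4.71, -4.68, -5.33 and -5.72, with 2 of 4 arrays well above background, and the PHE values were 2.31, 2.6, 3.39 and 2.26. The groups were again apart, by 7.75 ± 0.69 (adjusted p = 2.22e-08). With normexp these differences were 6.21 and 5.48.

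The near-term and adult calls of IL1B were lost with only the arrays of that age. Near-term untreated values were -4.15, -2.74, -3.71 and -1.95 and PHE values 0.43, -0.99, 1.34 and 0.81, with all 8 arrays well above background. Every PHE array lay above every untreated array, and the log2 difference was 3.53 ± 0.69 (11.57-fold; adjusted p = 0.000338). With normexp it was 1.58 (adjusted p = 0.0368). The adjusted p was 0.0572 with only near-term arrays; the difference was 2.34 both with slide as a block (adjusted p = 0.104) and within slide 1 (adjusted p = 0.0839). Adult untreated values were -5.51, -5.24, -5.65 and -5.45 and PHE values -0.71, -4.7, -3.04 and 0.48. The groups did not overlap, although PHE replicate 2 stood only just above the untreated arrays and the PHE arrays spanned far more than the untreated ones. IL1B rose by 3.47 ± 0.69 (11.09-fold; adjusted p = 0.00218), by 3.39 within slide 3 (adjusted p = 0.039), and by 4.37 without PHE replicate 2 (adjusted p = 1.04e-05). With normexp the adult rise was 2.31 (adjusted p = 0.0347), and with only adult arrays the adjusted p was 0.189.

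IL1RN, the decoy ligand of the interleukin-1 receptor, was not well above background on any untreated premature or newborn array. At the premature age the untreated log2 values were -6.55, -6.87, -7.24 and -6.41 and the PHE values -1.32, 0.78, -0.03 and -0.5. The groups were apart, and the log2 difference of 6.5 ± 0.91 is at least 28.72-fold (adjusted p = 9.21e-06). In newborn lambs the untreated values were -6.87, -6.62, -5.18 and -6.29 and the PHE values -1.27, -0.96, 0.31 and -0.46. These groups were apart as well, by 5.64 ± 0.91, which is at least 18.13-fold (adjusted p = 0.000106). With normexp they were 2.41 and 2.68 (adjusted p = 0.00435 and 0.00298).

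At the other ages IL1RN groups overlapped. Near-term untreated values were -6.12, -3.16, -4.65 and -1.74, with 2 of 4 arrays well above background, and PHE values were -2.4, -7.31, -3.64 and -2.26, with 3 of 4. PHE replicate 2 was the lowest of the 8 arrays and untreated replicate 4, on the array with the lowest 75th percentile, the highest. The log2 difference of 0.02 ± 0.91 was not tested. It was -2.16 with slide as a block (not tested) and within slide 1 (adjusted p = 0.191), -1.64 with normexp (not tested), and 1.16 without PHE replicate 2 (adjusted p = 0.291). Adult untreated values were -7.63, -7.62, -5.12 and -6.93 and PHE values -5.58, -7.13, -6.82 and -4.01, with 1 of 4 arrays well above background in each group. PHE replicate 4 lay above all untreated ones, and the difference of 0.94 ± 0.91 was not tested.

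IL10 has 2 probes that moved together over the 32 arrays (Pearson r = 0.972); 8 arrays had the first well above background but not the second, and none the reverse. On the first probe the untreated premature log2 values were -4.46, -4.54, -4.19 and -4.36, all well above background, and the PHE values 1.08, 1.92, 0.85 and 0.1. The groups were apart by 5.38 ± 0.78 (41.5-fold; adjusted p = 1.4e-05). The newborn untreated values were -5.01, -4.39, -4.11 and -4.78, with 2 of 4 arrays well above background, and the PHE values -0.23, 0.9, 0.68 and 0. These groups were apart by 4.91 ± 0.78 (adjusted p = 8.48e-05). With normexp the differences were 3.32 and 3.23. The second probe differed by 5.48 at the premature age, at least 29.57-fold, and by 5.05 in newborn lambs, at least 14.36-fold (adjusted p = 3.56e-07 and 2.86e-06).

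At the near-term age and in adult sheep the IL10 groups overlapped. Near-term untreated values of the first probe were -5.11, -3.45, -5.36 and -3.24, with 1 of 4 arrays well above background, and PHE values were -2.23, -4.81, -1.53 and -2.77. The PHE arrays other than replicate 2 lay above all untreated ones, and the log2 difference was 1.45 ± 0.78 (adjusted p = 0.141). Without PHE replicate 2 it was 2.11 (adjusted p = 0.041), with slide as a block 0.4 (adjusted p = 0.824), and with normexp background correction it turned to -0.9 (adjusted p = 0.164). Adult untreated values were -7.83, -7.43, -7.31 and -7.82, none well above background, and PHE values were -3.52, -7.56, -7.4 and -2.88. PHE replicates 1 and 4 stood clear of the untreated arrays and replicates 2 and 3 lay among them. The adult difference of 2.26 ± 0.78 was not tested. The second probe, not tested at either age, differed by 1.28 at the near-term age and 1.2 in adult sheep. Without near-term PHE replicate 2 its near-term value was tested and called, at 2.05 (adjusted p = 0.00642), and with normexp it turned to -1.5.

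**Figure D2:**
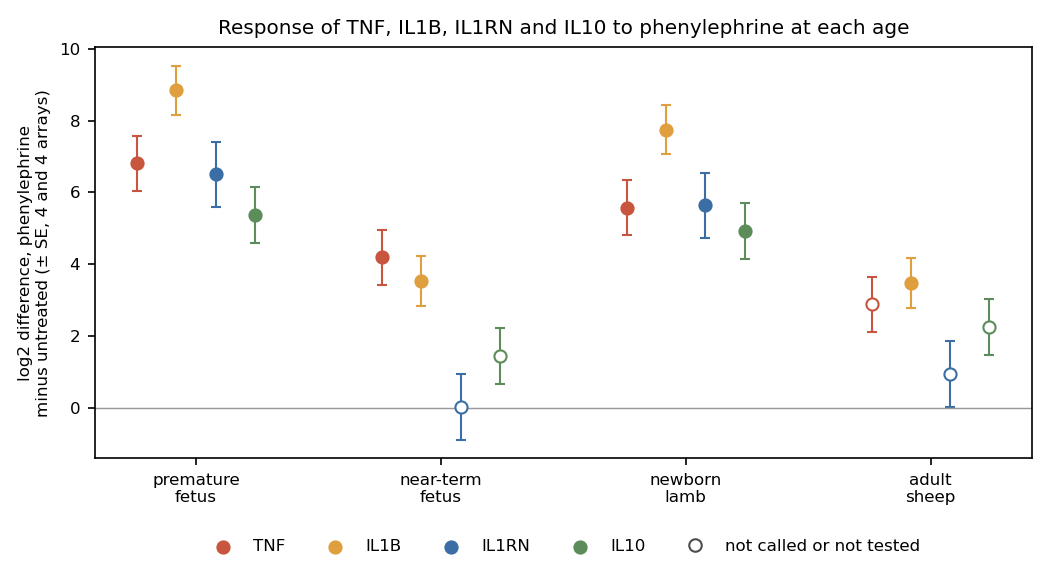
Points are the log2 difference of PHE minus untreated arrays for TNF, IL1B, IL1RN and IL10 (first probe) at each of the 4 ages, with ± 1 SE over 4 and 4 arrays; open points are not called or not tested. IL1B runs 8.84, 3.53, 7.75 and 3.47 from premature fetus to adult sheep, and IL1RN 6.5, 0.02, 5.64 and 0.94.

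At the premature age and in newborn lambs, arrays with the same replicate number deviated from their group means together (r = 0.403 to 0.56 and 0.512 to 0.605), so differences by number are given there. For IL1RN they were 5.23, 7.64, 7.21 and 5.9 at the premature age and 5.6, 5.66, 5.48 and 5.83 in newborn lambs. No untreated IL1RN array of either age was well above background, so how much these values vary is not read. For IL1B the differences were 8.93, 9.39, 8.77 and 8.26 at the premature age and 7.02, 7.28, 8.72 and 7.97 in newborn lambs. For TNF they were 6.37, 7.61, 7.39 and 5.88, then 6.71, 5.68, 4.89 and 4.99. In all 8 numbered pairs the PHE array was higher for each of these 3 genes. Any pairing would give this, since the groups were apart. For TNF 1 of 8 untreated arrays was well above background. For IL10 the range was 4.46 to 6.45 at the premature age and 4.78 to 5.3 in newborn lambs.

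Whether the response differed between ages was tested on the difference itself. From premature to near-term fetus 3 of the 4 genes were called with a lower response, beside 1.79% of all features tested. IL1RN had a log2 difference of -6.48 ± 1.29 (adjusted p = 0.00707), IL1B of -5.31 ± 0.98 (adjusted p = 0.00509) and IL10 of -3.92 ± 1.1 (adjusted p = 0.0424). The second IL10 probe gave -4.2 ± 0.87 (adjusted p = 0.00898), while TNF at -2.62 ± 1.09 did not pass (adjusted p = 0.165). IL1RN was well above background on none of the untreated premature arrays, 2 of 4 untreated and 3 of 4 PHE near-term arrays, and IL10 on 1 of 4 untreated near-term arrays. None of the 3 calls could be tested where all arrays compared had to be well above background. With only the arrays of both ages the adjusted p was 0.01 for IL1B, 0.0659 for IL1RN, 0.0741 for IL10 and 0.0611 for the second IL10 probe, so only IL1B passed. These 2 ages were scanned in separate runs. With slide as a block the differences were -8.66 for IL1RN, -6.49 for IL1B and -4.97 for IL10. Slide 1 held all 4 near-term PHE arrays and 1 untreated near-term array. The blocked values rest on that untreated array and cannot decide whether the response differed. The IL10 call was lost with the replicate number as a block (-3.92, adjusted p = 0.0756) and without any 1 of 13 arrays.

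The other 3 comparisons of the response called none of the 4 genes. From newborn lamb to adult sheep the differences were -4.7 ± 1.29 for IL1RN (adjusted p = 0.245), -4.28 ± 0.98 for IL1B (0.118), -2.69 ± 1.09 for TNF (0.732) and -2.65 ± 1.1 for IL10 (0.745), beside 0.0298% of all features called lower. Newborn and adult arrays were on separate slides scanned in separate runs, which cannot be told apart from age. IL1RN was well above background on no untreated newborn array and on 1 of 4 arrays in each adult group. IL1B passed with quantile normalization, median scaling or array weights, and IL1RN with quantile normalization (-4.83, adjusted p = 0.0277) or array weights (-4.46, 0.00901). The second IL10 probe, at -3.85 (adjusted p = 0.111), passed with these 2 settings (-4.34 and -4.14), with median scaling (-3.91) and with a floor of 0.01 (-4.41). From premature fetus to newborn lamb the differences were -1.24 for TNF, -1.09 for IL1B, -0.86 for IL1RN and -0.46 for IL10 (adjusted p = 1 for each), beside 0.01% called lower. From near-term fetus to adult sheep they were -1.31 for TNF (adjusted p = 0.471), -0.06 for IL1B (0.977) and 0.81 for IL10 (0.683), beside 6.13% called lower, and IL1RN was not tested.

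Levels were compared between ages scanned in the same run. From near-term fetus to adult sheep under PHE, TNF fell by 3.68 (adjusted p = 0.000455), IL10 fell by 2.51 (0.0118) and IL1B fell by 2.39 (0.00738) on the log2 scale, beside 20.2% of all features called lower, and IL1RN at -1.98 was not tested. On adult PHE arrays TNF was well above background on 3 of 4 and IL10 on 2 of 4. Both entered the test through their near-term PHE arrays, so dim adult values enter these falls as measured. Only TNF had groups apart in that comparison. With only the arrays compared none of the 3 passed (adjusted p = 0.0558, 0.199 and 0.171), and with slide as a block the values were -1.77, -1.19 and -0.96 (adjusted p = 0.467, 0.652 and 0.678). On untreated arrays IL1B fell by 2.33 (adjusted p = 0.00759), where 22.4% of all features were called lower. It no longer passed with a block for slide (-1.85, adjusted p = 0.0509), quantile normalization (-1.05, 0.132) and array weights (-1.87, 0.102). The others were not tested there: TNF at -2.36 had groups apart, IL1RN at -2.91 overlapped, and IL10 at -3.31 had groups apart, with 0 of 4 adult and 1 of 4 near-term arrays well above background.

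From premature fetus to newborn lamb no level of the 4 genes was called. Under PHE the differences were -1.7 for TNF (adjusted p = 0.168), -1.21 for IL1B (0.299), -0.65 for IL10 (0.668) and -0.33 for IL1RN (0.872), while 4.93% of all features were called lower. With only those 8 arrays TNF and IL1B passed (adjusted p = 0.0267 and 0.0244), and the slides of these ages cannot be told apart from the ages. On untreated arrays IL10, the 1 gene tested, differed by -0.19 (adjusted p = 0.928), where 5.09% of all features were called lower.

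Set in order of their group means, the 4 genes had their highest level under PHE at the premature age. This order crosses the 2 scan runs, premature and newborn arrays in one and near-term and adult arrays in the other, and run cannot be told apart from age in it. IL1B ran from 3.85 ± 0.55 (SD, n = 4) there to 2.64 ± 0.52 in newborn PHE, and then, with no overlap, to 0.4 ± 1 in near-term PHE and -1.99 ± 2.33 in adult PHE. Near-term untreated arrays followed at -3.13 ± 0.99, apart from the premature (-4.99), newborn (-5.11) and adult (-5.46) untreated groups, of which the newborn overlapped both others. IL1RN and IL10 shared a gap after newborn PHE, which falls between the scan runs: IL1RN stood at -0.27 ± 0.88 and -0.6 ± 0.69 in premature and newborn PHE and at -3.9 ± 2.36 in near-term PHE, and IL10 at 0.99 ± 0.75, 0.34 ± 0.54 and -2.84 ± 1.41. Below that gap every neighbouring pair of groups overlapped for both antagonists. TNF had no such gap: premature (1.09 ± 0.78), near-term (0.93 ± 0.83), newborn (-0.61 ± 0.81) and adult PHE (-2.75 ± 2.41) each overlapped the next, and the 1 gap lay between near-term untreated (-3.27 ± 1.04) and adult untreated arrays (-5.63 ± 0.39).

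The balance of cytokine and antagonist within an array does not depend on how arrays are scaled, and 6 such contrasts under PHE were tested by exact two-sided permutation, for which 4 against 4 arrays allow no p under 0.0286. The log2 of IL1B minus that of IL1RN was 3.59, 3.56, 3.09 and 2.71 in newborn lambs and 5.16, 3.67, 4.02 and 3.61 at the premature age. All newborn values lay below all premature ones, by 0.88 in the mean (exact p = 0.0286, adjusted over 6 tests p = 0.171). TNF minus IL10 was -0.95 ± 0.55 in newborn lambs and 0.1 ± 0.83 at the premature age (exact p = 0.0857, adjusted p = 0.257). The 4 further contrasts had adjusted p of 0.343 to 0.686. In adult against near-term PHE these were -0.41 for IL1B minus IL1RN, -1.17 for TNF minus IL10 and 1.29 for IL1B minus TNF, and in newborn against premature PHE 0.49 for IL1B minus TNF. Of 4 adult PHE arrays IL1RN was well above background on 1, IL10 on 2 and TNF on 3. The adult contrasts therefore include dim values. These differences compare ages and say nothing of the amount of one transcript against another.

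Across arrays the antagonists followed IL1B more closely than TNF. Over the 16 PHE arrays of all ages Pearson r was 0.983 for IL1B with IL10, 0.925 for IL1B with IL1RN and 0.938 for IL1RN with IL10, against 0.649 for TNF with IL10 and 0.529 for TNF with IL1RN. TNF with IL1B had r = 0.734. Over all 32 arrays the 6 pairs had r between 0.759 (TNF with IL10) and 0.92 (TNF with IL1B). These arrays share age and treatment groups, slides and scaling, so the coefficients are a description.

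**Figure D3:**
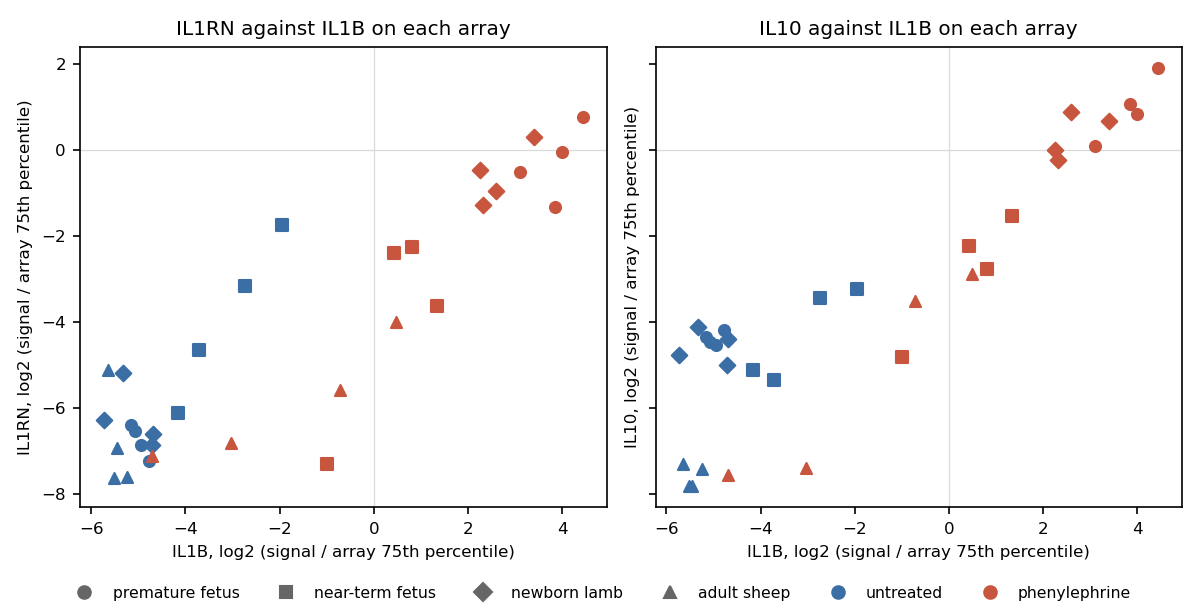
IL1RN (left) and IL10 (right) are plotted against IL1B, each as log2 of signal over the array's 75th percentile, with 1 point for each of the 32 arrays, marker shape for age and colour for treatment. Over the 16 PHE arrays r is 0.925 for IL1RN and 0.983 for IL10, and the premature and newborn PHE arrays lie at the upper right of both panels.

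Among 2061 genes with a symbol, those most like each of the 4 genes over 32 arrays were named. For TNF they were CXCL8 (r = 0.922), IL1B (0.92) and IRF1 (0.918), and for IL1B they were IL1A (0.963), CXCL8 (0.962) and CCL4L1 (0.952). CXCL8 encodes a neutrophil chemokine, and IRF1 a transcription factor of the interferon response. For IL1RN they were CSF2 (0.93), CXCL1 (0.902) and S100A9 (0.902), and for IL10 they were PLEK (0.973), CXCL5 (0.945) and TLR2 (0.943). CSF2 encodes a growth factor of myeloid cells, S100A9 an abundant protein of neutrophils, and PLEK a protein of platelets and leukocytes. In the sheep assembly ARS-UI_Ramb_v3.0, IL1A is the next gene to IL1B and MAPKAPK2 the next to IL10. The nearest genes on either side of TNF and IL1RN have no named probe. MAPKAPK2, a kinase that stabilises cytokine transcripts, rose at the premature (1.37) and near-term ages (1.31) and not by the test in newborn lambs (0.53) or adult sheep (0.17).

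The receptor IL1R1, which binds interleukin-1 and its antagonist, rose at every age. The log2 differences were 2.98 ± 0.49 at the premature age, 2.07 ± 0.49 at the near-term age, 2.88 ± 0.49 in newborn lambs and 2.49 ± 0.49 in adult sheep (adjusted p = 6.89e-05, 0.00176, 0.000182 and 0.00181), and with normexp the near-term value was -0.07. PHE and untreated arrays were apart at all ages but the adult, where 3 of 4 PHE arrays lay above all untreated ones. IL1R2, a decoy receptor with no signalling part, differed by 1.54 at the premature age (adjusted p = 0.135) with all 4 PHE arrays above the untreated ones, and was not tested at the others. TNFRSF1A, the main TNF receptor of most tissues, rose by 1.19 ± 0.26 and 1.39 ± 0.26 at the premature and near-term ages (adjusted p = 0.00177 and 0.00023). It differed by 0.63 in newborn lambs (adjusted p = 0.128) and 0.13 in adult sheep (0.933). The other receptors IL1RAP, TNFRSF1B, IL10RA and IL10RB have no named probe.

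Most genes of the lists that follow were named through the study's table of altered genes, so their counts read against genes with a symbol and not against all features. Their calls were made with the spread pooled over all ages as well, and the genes named are those called at the most ages. The median log2 difference of tested genes with a symbol was 0.06, 0.14, -0.03 and -0.02 from the premature age to adult sheep, and 27.4%, 34.9%, 19.5% and 11.1% of them were called higher. Of 16 genes of the IL-1 family other than IL1B and IL1RN, 5 had a probe, and 2 of 5 tested were called higher at the premature age, 2 of 3 at the near-term age, 3 of 4 in newborn lambs and 1 of 2 in adult sheep. Their medians were 1.78, 2.07, 3.02 and 1.69. IL1A, the second interleukin-1 agonist, rose by 8.72 ± 0.65 at the premature age and 5.88 ± 0.65 in newborn lambs, at least 95.11-fold and 12.4-fold (adjusted p = 4.21e-10 and 6.47e-07). At the near-term age it rose by 3.17 (adjusted p = 0.000501; -0.19 with normexp), and in adult sheep, at 1.73, it was not tested. A second IL1A probe differed by 7.21, 1.64, 4.81 and 1.89 from the premature age to adult sheep. IL1RL1, the receptor of interleukin-33, rose in newborn lambs by 3.16 (adjusted p = 0.00312) and differed by 1.78 at the premature age (0.0807).

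Of 32 genes of the TNF superfamily other than TNF, 9 had a probe. Called higher were 6 of 7 tested at the premature age, 4 of 7 at the near-term age, 4 of 6 in newborn lambs and 0 of 4 in adult sheep, with medians of 1.56, 1.59, 1.6 and 1.22; none was called lower. All 4 genes named here encode receptors. TNFRSF12A, the receptor of TWEAK, rose by 3.14, 2.67 and 1.63 at the first 3 ages and differed by 1.4 in adult sheep (adjusted p = 2.66e-06, 2.35e-05, 0.00742 and 0.0511). TNFRSF10B, a death receptor for TRAIL, rose by 3.32 at the premature age and by 3.77 in newborn lambs, there at least 7.426-fold (adjusted p = 0.00372 and 0.00176). CD40, a co-stimulatory receptor of antigen-presenting cells, rose by 2.31, 1.59 and 2.33 at the first 3 ages (adjusted p = 0.00719, 0.0369 and 0.01). FAS rose by 1.09 and 1.57 at the premature and newborn ages (adjusted p = 0.0181 and 0.00145) and differed by 0.55 at the near-term age (0.18). With normexp the near-term values were -0.54 for CD40 and -1.21 for FAS. At the near-term age a second probe differed by 1.58 for FAS and 1.04 for CD40.

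The IL-10 family and its signalling had 4 genes with a probe of 16, all tested at each age. Called higher were 3 at the premature age, 1 at the near-term age, 2 in newborn lambs and 2 in adult sheep, with medians of 1.58, 0.34, 1.91 and 1.51, and 1 was called lower, at the near-term age. The near-term share, 1 of 4, is below the 34.9% of genes with a symbol. SOCS3, a feedback inhibitor of JAK kinases, rose at each age, by 4.53, 7.13, 5.19 and 7.29 ± 0.59 (adjusted p = 3.09e-06, 1.87e-09, 9.72e-07 and 1.01e-09). HMOX1, the haem-degrading enzyme induced by interleukin-10, rose by 2.1, 3.27 and 2.7 at the premature age, in newborn lambs and in adult sheep (adjusted p = 0.0454, 0.00303 and 0.0323) and differed by 0.84 at the near-term age (0.377). STAT3 rose by 1.07 at the premature age (adjusted p = 0.000271), and JAK1 fell by 0.83 at the near-term age (0.00295).

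Adaptors and kinases below the IL-1 and TNF receptors had 12 genes with a probe of 34. Called higher were 9 of 12 tested at the premature age, 8 of 12 at the near-term age, 7 of 11 in newborn lambs and 4 of 12 in adult sheep, with medians of 1.4, 1.27, 1.24 and 0.79. BIRC3, a ubiquitin ligase of the TNF receptor complex, rose by 2.81, 2.09, 2.08 and 1.42 from the premature age to adult sheep (adjusted p = 4.14e-06, 0.000137, 0.00033 and 0.0261). A second, dimmer BIRC3 probe differed by 3.24, -0.05, 2.79 and 0.86. IKBKB, the kinase that releases NF-κB from its inhibitor, rose by 2.54, 1.23, 1.95 and 1.08 (adjusted p = 8.9e-09, 0.00021, 1.8e-06 and 0.0043). RIPK2 rose by 1.43, 1.56, 1.24 and 1.1 (adjusted p = 0.000845, 0.000216, 0.00471 and 0.0273). MAPK14, the p38α stress kinase, was the 1 gene of this list called lower, and it fell at each age, by 1.23, 0.8, 1.09 and 0.77 (adjusted p = 0.000155, 0.00504, 0.000966 and 0.0416).

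Processing and release were covered by 3 genes with a probe of 13, all tested at each age. Called higher were 1, 2, 1 and 0 of them from the premature age to adult sheep, 1 was called lower at the premature age, and the medians were 0.18, 1.97, 0.27 and -0.08. LITAF, a regulator of TNF transcription, rose by 1.7, 2.12 and 1.54 at the first 3 ages and differed by 1.15 in adult sheep (adjusted p = 0.0014, 9.67e-05, 0.0053 and 0.088). TIMP3, the inhibitor of the protease that sheds TNF, rose by 1.97 at the near-term age (adjusted p = 0.000309). NLRP1, an inflammasome sensor, fell by 1.12 at the premature age (adjusted p = 0.0384). Genes of the caspase and gasdermin steps had no named probe.

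Genes listed as inducible restraints of IL-1 and TNF signalling had 13 with a probe of 26. Whether each of them acted as a restraint here was not tested. Called higher were 8 of 10 tested at the premature age, 6 of 10 at the near-term age, 6 of 10 in newborn lambs and 4 of 11 in adult sheep, with medians of 3.1, 2.42, 1.99 and 1.64; none was called lower. NFKBIZ, a nuclear regulator of NF-κB, rose by 5.37, 4.07, 3.56 and 3.33 ± 0.44 (adjusted p = 1.75e-09, 2.73e-07, 3.77e-06 and 8.46e-06). ZFP36, which marks TNF and other cytokine transcripts for decay, rose by 3.15, 4.57, 1.77 and 3.9 ± 0.31 (adjusted p = 3.04e-08, 4.08e-11, 0.000237 and 7.31e-10). A second ZFP36 probe, also well above background on all arrays, differed by 6.47, 7.26, 2.96 and 4.04. NFKBIA, the inhibitor of NF-κB, rose by 4.24, 2.05 and 2.4 at the first 3 ages and differed by 1.12 in adult sheep (adjusted p = 6.99e-10, 4.53e-05, 1.31e-05 and 0.0546). DUSP1, a phosphatase of stress kinases, rose by 2.11, 3.34 and 2.07 at the premature, near-term and adult ages (adjusted p = 0.00329, 2.04e-05 and 0.0126), and differed by -0.17 in newborn lambs (0.907).

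Known target genes of IL-1 and TNF had 23 with a probe of 37, and none was called lower. Called higher were 19 of 21 tested at the premature age, 11 of 15 at the near-term age, 18 of 20 in newborn lambs and 7 of 14 in adult sheep, with medians of 4.03, 3.36, 3.54 and 2.56. Among those named by accession, which the study's calls did not choose, 8 of 8, 5 of 6, 7 of 8 and 5 of 6 were called higher. The shares of all tested genes named by accession were 15.5%, 11.7%, 15.5% and 8.84%. In the IL-1 family list 1 of 2, 1 of 2, 1 of 2 and 0 of 1 so named were called higher. Among the genes listed as restraints it was 1 of 2 at each age. IL6 entered the test through its PHE arrays at the premature, newborn and adult ages, with 0 of 4 untreated arrays well above background. CSF2 and CSF3 did so at the premature age and in newborn lambs. The counts of target genes called higher, those named by accession included, are therefore a description. IL6 rose by 11.04, 7.36, 9.81 and 8.65 ± 0.7, at least 1123-fold at the premature age, 362.8-fold in newborn lambs and 140.2-fold in adult sheep (adjusted p = 1.35e-11, 2.18e-08, 4.24e-10 and 1.01e-09). CXCL8 rose by 8.53, 6.96, 8.63 and 5.77 ± 0.96 (adjusted p = 3.06e-07, 8.04e-06, 6.61e-07 and 0.00024). IRF1 rose by 6.05, 4.6, 4.11 and 4.94, and PTGS2, the inducible cyclooxygenase, by 5.8, 5.49, 5.1 and 4.31. For all 4 of these genes PHE and untreated arrays were apart at every age. A second CXCL8 probe differed by 8.8, 7.22, 8.68 and 5.38. A second PTGS2 probe differed by 3.98, -0.76, 4.09 and 0.45, with 4, 1, 4 and 0 of 4 PHE arrays well above background. Whether the rise of any target followed from that of TNF or IL1B was not tested.

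**Figure D4:**
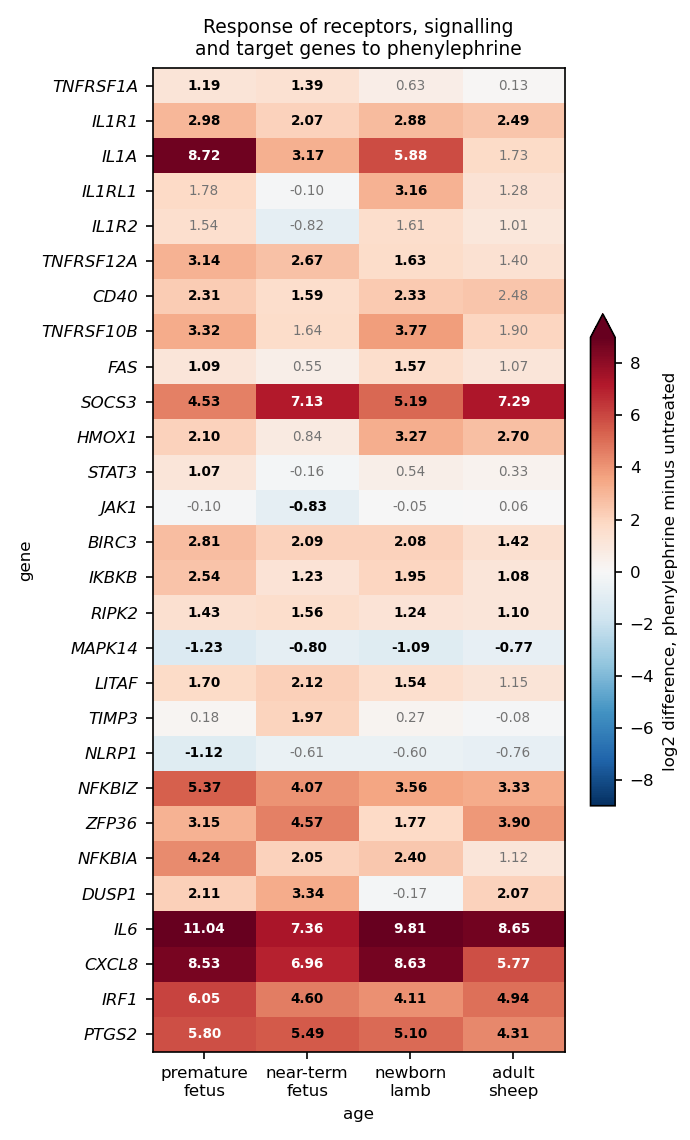
Colour and number give the log2 difference of PHE minus untreated arrays for receptors, signalling, processing, restraint and target genes (y axis) at the 4 ages (x axis), with called differences in bold. IL6 reaches 11.04 at the premature age, SOCS3 is higher in bold at all 4 ages, and MAPK14 is lower in bold at all 4.

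Markers of blood cells were read as the summed signal over the array's 75th percentile. Of 12 monocyte and macrophage markers 6 had a probe, with CD14 the most abundant in every group. Their sum went from 2.26 untreated to 4.33 under PHE at the premature age, 3.22 to 5.52 in newborn lambs, 0.767 to 1.61 in adult sheep and 3.64 to 2.09 at the near-term age. PHE and untreated sums were apart only at the premature age. Of 7 neutrophil markers only S100A9 had a probe. It went from 0.0631 to 0.602 at the premature age and from 0.0475 to 0.94 in newborn lambs, where it rose by 3.28 and 5.13 on the log2 scale (adjusted p = 0.0179 and 0.000573). At the near-term age it was 0.227 and 0.183, and in adult sheep 0.0176 and 0.0907, not well above background on all arrays of either adult group. Near-term untreated replicate 4 (0.618) and adult PHE replicate 4 (0.297) were the highest of their groups, whose other values reached 0.177 and 0.0367. Of 6 markers of all leukocytes 3 had a probe, with CD74 the most abundant; their sum went from 0.242 to 0.713, 1.06 to 0.595, 0.425 to 0.65 and 0.922 to 0.716 from the premature age to adult sheep. These sums were apart at the premature age, at most 0.387 untreated and at least 0.518 under PHE. The adult untreated mean rests on replicate 3 (2.58), with the other arrays at 0.237 to 0.592.

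Single markers are named here for being called, after their values were seen. CD86 rose at the premature age (1.96) and in newborn lambs (1.99), and CD53 (1.9) and LCP1 (1.91) rose at the premature age. CD68 rose at the near-term age (0.99), in newborn lambs (1.45) and in adult sheep (1.24), and TYROBP fell by 1.43 at the near-term age. Of the monocyte and macrophage markers tested, 1 of 4 was called higher at the premature age, 1 of 3 at the near-term age, where 1 was called lower, 2 of 4 in newborn lambs and 1 of 3 in adult sheep. CD14 was called at no age, and TYROBP differed by -0.51 at the premature age and -0.21 in newborn lambs. Lymphocyte markers, 3 of 8 with a probe and CD3E the most abundant, summed to a mean of at most 0.284 in any group. Mast cell markers, 2 of 5 with TPSB2 the most abundant, summed to 0.069 and 0.247 at the premature age, 0.662 and 0.431 at the near-term age, 0.0489 and 0.14 in newborn lambs and 0.0239 and 0.0192 in adult sheep. They were apart at the premature age (at most 0.108 untreated, at least 0.109 under PHE) and in newborn lambs (0.0626 and 0.0864). TPSB2 differed by 1.91 and 1.66 there, with all PHE arrays above the untreated ones, and was not called (adjusted p = 0.0908 and 0.192). Near-term untreated replicate 4 was far above its group for mast cell markers (1.62, others 0.261 to 0.447) and the highest for lymphocyte markers (0.638), so the near-term means rest on it. The part of leukocytes and mast cells in the result was not tested.

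Of 6 red blood cell markers 2 had a probe, HBA1 and HBB. HBA1 was the most abundant and made up most of their sum, which went from 41.6 to 11.9 at the premature age, 16.3 to 4.03 at the near-term age, 30.1 to 15.6 in newborn lambs and 5.96 to 3.27 in adult sheep. The PHE arrays lay below all untreated arrays at the first 3 ages. HBA1 fell by 1.96 at the premature age and 2.38 at the near-term age (adjusted p = 0.000622 and 5.8e-05). HBB was called at no age and its groups overlapped, with differences of -0.71, -1.1, 0.08 and 0.49 from the premature age to adult sheep. The part of residual blood in the result was not tested.

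Other tissue markers bear on the labelled artery. The smooth muscle marker CNN1, 1 of 8 with a probe, was abundant in each group, from 28.8 in premature PHE to 439 in adult PHE, and no PHE effect on it was called. Endothelial markers, 2 of 8 with a probe, summed to a mean of at most 0.258, and in newborn and adult groups neither TIE1 nor KDR was well above background on all arrays. TIE1 rose by 2.35 at the near-term age, where 1 of 4 untreated arrays was well above background. KDR differed by -1.54 at that age and was not tested. Fibroblast markers, 4 of 6 with a probe and DCN the most abundant outside near-term PHE, where COL1A1 was, summed to 92.7 and 79.6, 39.3 and 75.6, 34.2 and 56.8, and 11.1 and 11.2 from the premature age to adult sheep. COL1A1, COL1A2 and COL3A1 rose by 4.22, 4.23 and 3.67 at the near-term age, and COL1A2 rose by 1.89 at the premature age. DCN was called at no age, with differences of -0.47, -0.31, 0.77 and -0.14 from the premature age to adult sheep. At the premature age all DCN values under PHE lay below the untreated ones.

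**Figure D5:**
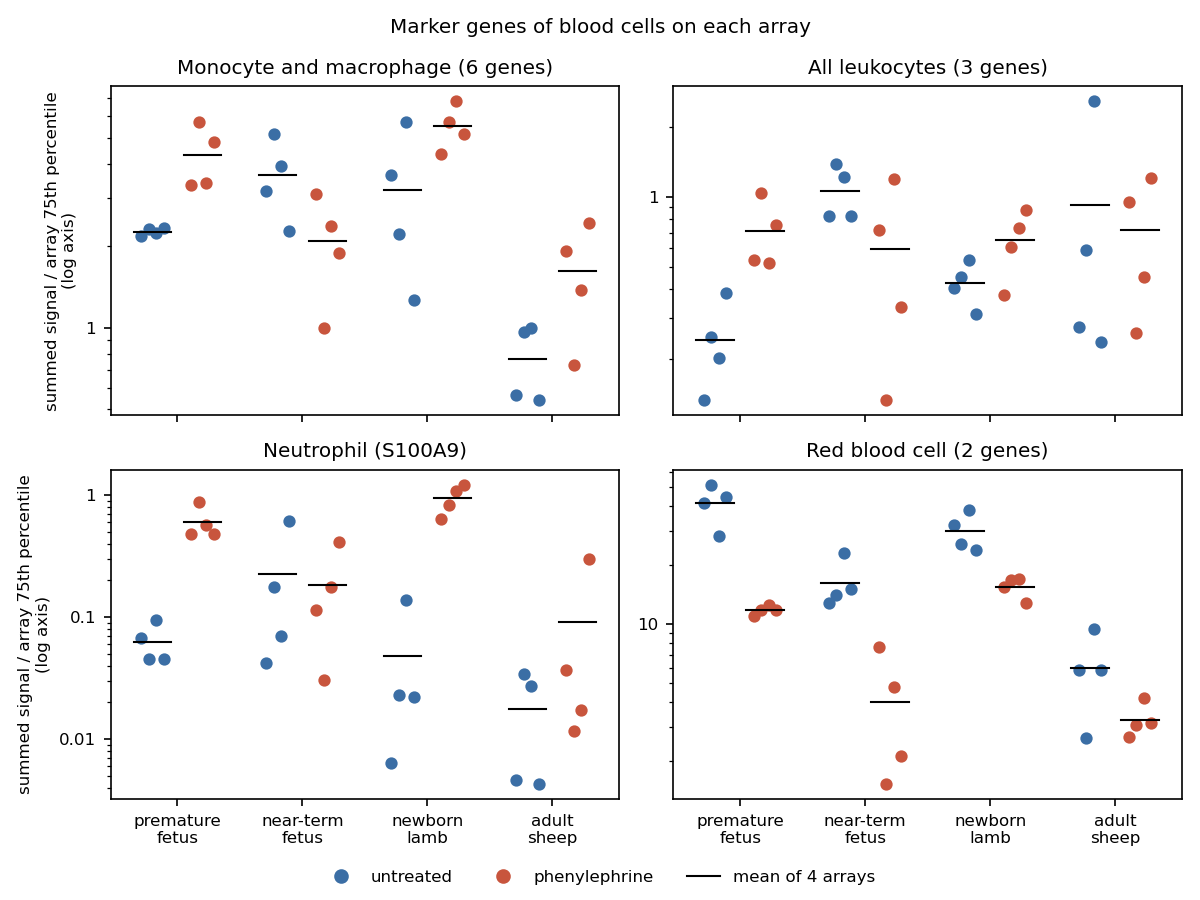
Summed signal of the marker genes over the array's 75th percentile (log y axis) is plotted by age for 4 lists, with 1 point for each array, colour for treatment and a bar at the mean of 4 arrays. Neutrophil marker S100A9 is higher on PHE arrays at the premature age and in newborn lambs, and red blood cell markers are lower on PHE arrays at the premature, near-term and newborn ages.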

How the data were processed

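Single-colour Agilent sheep arrays were read from 32 scanner files. Per the file headers, Agilent Feature Extraction 9.5.3.1 made the intensity values as processed signal with the background taken off, and the deposited matrix equals that signal (largest log2 difference 0). Values are the log2 of that signal over the 75th percentile of the array, the scaling of the study's methods. Of 15744 spots 536 are controls, and spots of one sequence were averaged to 15008 probes, leaving out spots the scanner flagged as outliers, which the setting on the deposited matrix keeps. The probe with the highest mean signal stands for each gene, which left 14425 genes and unnamed features; unmapped columns were 0.

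Probes took their gene name from the accession (543), from a match of group means to the study's gene tables (1886) or from the file (425), and 12154 have none. Matches were within 0.1%, or by rounding to 2 decimals at the premature age. Table genes matched to 1 probe were 1196 of 1269 (premature), 1101 of 1106 (near-term), 1012 of 1016 (newborn) and 437 of 438 (adult), against 66, 3, 1 and 1 with the tables shifted. The near-term table matched only with PHE replicate 1 left out of its mean (5 genes with all arrays). Of 65 probes with both kinds of name 57 had the same one.

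limma 3.58.1 in R 4.3.3 fitted all 32 arrays in 8 groups of 4, with one spread per probe shared by all groups. p-values were adjusted by Benjamini-Hochberg over all features tested in a comparison. Tests took in features that the scanner flagged as well above background on all 4 arrays of one or both groups compared. They were called at adjusted p under 0.05 and 1.5-fold. Comparisons were PHE against untreated at each age, differences of that effect between ages, and levels between ages of one scan. Within-array differences were tested by exact permutation. The code was tested on simulated data in which each probe had the same spread in all groups, which does not hold here. A further simulation used the spread of each group and had no criterion to pass. Untreated and PHE arrays of the same number correlated at 0.403 to 0.56 (premature) and 0.512 to 0.605 (newborn), each best with its own number, but at -0.157 to 0.432 (near-term) and -0.107 to 0.05 (adult), so no block for the number was used.

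Named from each of 7 lists were up to 4 genes called at the most ages, ties by the largest difference, together with the receptors and the 3 genes most like each of the 4. Marker genes were summed by list. Members and lists were chosen with earlier results of these data known. Alternatives were normexp background correction (offset 50), quantile normalization, median scaling, a floor of 0.01, other filters, other sets of arrays, blocks for slide and replicate number, array weights, the methods' t-test and each array left out. Tables were made in Python 3.11.15 (pandas 2.3.3, numpy 2.4.6, scipy 1.17.1), and figures with matplotlib 3.10.9. Neighbouring genes were read from assembly ARS-UI_Ramb_v3.0.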

Additional observations from a re-analysis of the deposited data

Results flagged for a closer look

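Of 40 groups of arrays examined, 5 probes in 8 groups, 1 had a value far from the others: the second IL10 probe on near-term PHE replicate 2, at a log2 value of -6.72. Chance flags about 1 in 20 groups. On the same array the first IL10 probe read -4.81 and IL1RN -7.31, both the lowest of their near-term PHE group.

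A difference between the near-term and premature responses to PHE was called for IL1B (-5.31), IL1RN (-6.48), IL10 (-3.92) and the second IL10 probe (-4.2). With only the arrays of both ages IL1B alone passed. The 2 ages differ in slide, scan and spread between replicates, and these cannot be told apart from age.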

How the results depend on the processing

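Over the settings other than single arrays left out, 556 results for the 4 genes kept their side of the threshold or a count within 1.5 times, 26 lost a call, 13 gained one and 7 counts moved further. Kept counts include 9 of the 11 PHE calls with slide as a block or only the arrays compared, 8 with the methods' t-test, adjusted, and 2 of the 3 differences between ages with the replicate block or no filter. With single arrays left out 1657 kept theirs, 16 lost a call and 7 gained one. Of those kept, 15 and 18 turned in direction, none of them called, among them near-term IL1RN (0.02 to -2.16 with slide as a block) and near-term IL10 (1.45 to -0.9 with normexp). Premature and newborn PHE calls held in each setting that could test them, but normexp shrank them: TNF to 3.75 and 2.99, IL1B to 6.21 and 5.48, IL1RN to 2.41 and 2.68, IL10 to 3.32 and 3.23. It also shrank the near-term values of TNF to 2.14 and IL1B to 1.58, and the adult values of TNF to 1.82, IL1B to 2.31, IL1RN to 0.49 and IL10 to 0.92. The cause of changes below was not tested, except where fewer arrays or another set of probes was used.

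With only the arrays compared, near-term IL1B was 3.53 (adjusted p 0.0572), adult IL1B 3.47 (0.189), the near-term minus premature difference of IL1RN -6.48 (0.0659) and of IL10 -3.92 (0.0741; second probe -4.2, 0.0611). The methods' t-test, adjusted, gave near-term TNF 4.19 (0.122), near-term IL1B 3.53 (0.132) and adult IL1B 3.47 (0.48, unadjusted 0.058). With slide as a block or within slide 1, near-term TNF was 2.76 (0.0877, 0.0707) and IL1B 2.34 (0.104, 0.0839). The lone untreated array within slide 1 was assumed to vary like the other groups. Slide as a block gives no value for levels of newborn minus premature, since each age has its own slide. With no filter, adult TNF at 2.88 passed (0.0437). Array weights, the near-term age less its dimmest arrays and the within-slide values were chosen after the data were seen.

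The replicate block, which pairs arrays by number, took the IL10 difference of near-term minus premature (-3.92) to 0.0756 and changed no other call of the 4 genes. That difference was -3.92 with no filter (0.0572) and -3.26 with array weights (0.0673), and it lost its call without any 1 of 13 arrays (range -4.36 to -3.27). For adult minus newborn the IL1RN difference passed with quantile normalization at -4.83 (0.0277) and array weights at -4.46 (0.00901), and the IL1B difference at -5.03 (0.00292), -4.67 (0.00146) and, with median scaling, -4.34 (0.045).

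Levels of adult minus near-term on untreated arrays passed with no filter for IL1RN at -2.91 (0.00802), IL10 at -3.31 (0.000965) and TNF at -2.36 (0.0104). IL1B lost its call with quantile normalization at -1.05 (0.132), slide as a block at -1.85 (0.0509) and array weights at -1.87 (0.102). On PHE arrays IL10 lost its call with normexp at -0.87 (0.235), quantile normalization at -1.48 (0.147), only the arrays compared at -2.51 (0.199) and slide as a block at -1.19 (0.652). TNF lost it at -3.68 (0.0558) and -1.77 (0.467), and IL1B at -2.39 (0.171) and -0.96 (0.678), with the latter pair of settings. Levels of newborn minus premature on PHE arrays passed with only the arrays compared and with array weights, for TNF at -1.7 (0.0267) and -1.59 (0.0182) and for IL1B at -1.21 (0.0244) and -1.16 (0.0399).

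Single arrays left out gave these ranges. Near-term IL10 spanned 1.02 to 2.11 and passed without PHE replicate 2 (0.041), its second probe spanned 0.91 to 2.05 and passed without the same array (0.00642), near-term IL1RN spanned -0.72 to 1.16 and never passed, and adult TNF spanned 2.3 to 4.06 and passed without PHE replicate 2. The TNF difference of near-term minus premature spanned -2.94 to -2.14 and passed without adult PHE replicate 2 (0.0484). The IL1B difference of adult minus newborn spanned -5.1 to -3.37 and passed without adult PHE replicate 4 (0.00603). That of the second IL10 probe spanned -4.38 to -3.49 and passed without either of 2 arrays. On untreated arrays TNF, adult minus near-term, spanned -2.67 to -1.89 and passed without near-term replicate 3 (0.0165). On PHE arrays TNF, newborn minus premature, spanned -2.02 to -1.36 and passed without adult replicate 2 (0.0397). On PHE arrays, adult minus near-term, IL1RN spanned -3.12 to -1.44 and passed without near-term replicate 2 (0.00334). IL10 spanned -3.32 to -1.77 and lost its call without adult replicate 2 (0.0729) or 3 (0.0718), and IL1B spanned -3.22 to -1.49 and lost it without adult replicate 2 (0.0534). The second IL10 probe, not tested with all arrays, spanned -2.81 to -1.68 and passed without 1 array.

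The 11 calls of PHE effects became 3 where all arrays compared had to be well above background, since fewer could be tested. The 3 calls of differences between ages became 5 with quantile normalization, 0 where all arrays compared had to be well above background and 1 with only the arrays compared. The 4 calls of levels became 2 with quantile normalization, 2 where all arrays compared had to be well above background and 7 with no filter. The values of these levels with slide as a block are given by gene above. Normexp turned the near-term values of CD40 to -0.54, FAS to -1.21, IL1A to -0.19 and IL1R1 to -0.07. Features called higher with PHE went from 48.3% to 17.3% of near-term calls with normexp, and from 50.7% of newborn calls to 62.5% with normexp and 69.0% with median scaling. Untreated arrays not well above background limit the fold changes of TNF in newborn lambs and of IL1RN at the premature age and in newborn lambs.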
